A study of Mus musculus with 2 samples.

Results

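The 8 genes described here, Ccl3, Ccl4, Ccl5, Xcl1, Ccl20, Ccl1, Ccl22 and Ccl24, encode chemokines that leukocytes make: secreted proteins of the CC family and, for Xcl1, of the small XC family. They are 8 of the 30905 genes counted in both libraries. They were chosen with their counts by cell type in these same libraries known, so the levels by cell class below are a description of the values that chose them and carry no test. Cells were sorted for CD45 from colorectal tumor tissue of male C57BL/6 mice and sequenced with the 10x Genomics 3' V3 chemistry, which tags each captured RNA molecule with a unique molecular identifier (UMI). One library came from mice on a fasting-mimicking diet (FMD) and 1 from mice fed ad libitum, each pooled from 4 mice. All mice had received the carcinogen azoxymethane at 12 mg/kg and 3 cycles of dextran sodium sulfate at 2.5% (7 days, each followed by 14 days of water), a chemically induced model of colitis-associated cancer, and the diets started with the second cycle. The mice's age is not given in the sources used here, and the extraction protocol names location-matched normal colon beside the tumor-bearing colon. With 1 library per diet there is no replicate of either diet, so no difference between the libraries has a test. The intervals below are 95% intervals of the counts alone, and they are too narrow as a statement on diets, since UMIs of 1 cell are not independent and mice within a pool cannot be told apart.

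Chemokines bind G protein-coupled receptors on other leukocytes and guide them along gradients into and within tissue. Most inducible CC chemokines are transcribed shortly after a cell is stimulated, so that a few cells in a population can hold large amounts of their mRNA. Ccl3 and Ccl5 bind Ccr1; Xcl1 binds Xcr1 on cross-presenting dendritic cells; Ccl20 binds Ccr6 on B cells and type 17 T cells; Ccl1 binds Ccr8, Ccl22 binds Ccr4 on regulatory and type 2 T cells, and Ccl24 (eotaxin-2) binds Ccr3 on eosinophils.

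In the GENCODE annotation of the build GRCm38, 4 of the genes lay on chromosome 11: Ccl1 (ENSMUSG00000020702, chr11:82176657-82305690, minus strand), Ccl5 (ENSMUSG00000035042, chr11:83525778-83530518, minus), Ccl3 (ENSMUSG00000000982, chr11:83647844-83649355, minus) and Ccl4 (ENSMUSG00000018930, chr11:83662584-83664683, plus). Ccl3 and Ccl4 were neighbours, with 13228 bases between the end of Ccl3 and the start of Ccl4. Ccl20 (ENSMUSG00000026166, chr1:83116766-83119167, plus) and Xcl1 (ENSMUSG00000026573, chr1:164931644-164935527, minus) lay on chromosome 1, Ccl22 (ENSMUSG00000031779, chr8:94745590-94751699, plus) on chromosome 8 and Ccl24 (ENSMUSG00000004814, chr5:135569937-135573049, minus) on chromosome 5.

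The promoter windows of 4 members whose UMIs were concentrated in few cells or in 1 class are shown as RefSeq gives them for GRCm38.p6, 5' to 3' on the gene's strand, from 250 bases before the transcription start to 50 after it. Of the 8 members, 5 matched the promoter table by symbol (Ccl20, Ccl1, Ccl3, Xcl1 and Ccl22). The windows are chr1:83116516-83116815 (plus strand) for Ccl20, chr11:82179763-82180062 (minus) for Ccl1, chr11:83649329-83649628 (minus) for Ccl3 and chr1:164935473-164935772 (minus) for Xcl1. The RefSeq start of Ccl1 lies inside the GENCODE span of 129034 bases given above and not at its upstream end. Capitals mark the match to the kappaB consensus in Ccl20, and GGAAA on either strand in the other windows.
Ccl20: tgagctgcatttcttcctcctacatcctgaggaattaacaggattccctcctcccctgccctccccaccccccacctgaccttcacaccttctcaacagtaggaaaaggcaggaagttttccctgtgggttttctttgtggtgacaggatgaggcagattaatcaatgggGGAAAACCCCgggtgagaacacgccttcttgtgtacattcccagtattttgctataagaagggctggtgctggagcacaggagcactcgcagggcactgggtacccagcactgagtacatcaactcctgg
Ccl1: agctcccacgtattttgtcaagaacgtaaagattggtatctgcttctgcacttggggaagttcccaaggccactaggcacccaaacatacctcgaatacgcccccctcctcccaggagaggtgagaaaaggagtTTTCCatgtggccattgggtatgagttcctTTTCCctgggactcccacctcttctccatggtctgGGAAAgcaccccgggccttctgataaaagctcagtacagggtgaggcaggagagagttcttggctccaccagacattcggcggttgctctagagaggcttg
Ccl3: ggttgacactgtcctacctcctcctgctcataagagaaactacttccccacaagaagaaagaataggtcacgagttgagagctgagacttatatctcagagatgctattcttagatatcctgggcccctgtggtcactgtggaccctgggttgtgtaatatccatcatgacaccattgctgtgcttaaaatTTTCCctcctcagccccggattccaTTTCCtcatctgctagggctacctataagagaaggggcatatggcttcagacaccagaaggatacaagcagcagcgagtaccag
Xcl1: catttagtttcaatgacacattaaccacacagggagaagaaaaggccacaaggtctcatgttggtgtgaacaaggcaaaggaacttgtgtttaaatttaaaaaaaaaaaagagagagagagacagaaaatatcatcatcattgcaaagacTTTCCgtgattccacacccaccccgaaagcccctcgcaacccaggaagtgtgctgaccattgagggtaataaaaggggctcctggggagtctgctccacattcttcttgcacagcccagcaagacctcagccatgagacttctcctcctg
All motifs were searched on both strands. The kappaB consensus was found in the Ccl20 window only, 80 to 71 bases before the start on the minus strand, and 4.51% of all 32851 promoter windows of this length hold a match. GGAAA, the core that the kappaB and NFAT motifs share, was found 3 times in Ccl20 (1 of them inside the kappaB match), 3 times in Ccl1, 2 times in Ccl3 1 time in Xcl1 and 0 times in Ccl22, whose window is not shown, and 61.3% of all windows hold it. TATAAA was found in none of the 5 windows and in 13.6% of all windows. These are matches of letters in 1 window per gene.

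After filtering, 4612 cells of the FMD library and 4869 of the ad libitum library were kept, with a median of 5739 UMIs per cell in the FMD library and 5508 in the ad libitum library. The members held 24168 of the FMD and 29145 of the ad libitum UMIs. Ptprc, which encodes CD45, was found in 93.5% of FMD and 92.0% of ad libitum cells. The libraries had 7 cell barcodes in common, 4 of them among the kept cells. Cells were clustered without any chemokine ligand gene, and the clusters were named from marker lists, with "-like" added because the names are rebuilt from these data. The kept cells fell into B-like (2505 FMD, 2673 ad libitum), germinal center B-like (86, 73), plasma-like (32, 93), helper or naive T-like (761, 778), regulatory T-like (289, 179), CD8 T-like (84, 114), gamma delta T-like (47, 69), innate lymphoid-like (81, 25), mast or basophil-like (16, 9), macrophage or dendritic-like (168, 126) and neutrophil-like cells (55, 72). Clusters left unnamed were 1 led by Egr3 (231, 375), in which 97.4% of FMD and 95.2% of ad libitum cells had the B cell gene Cd79a, 1 led by Klrd1 (141, 156), 1 led by Siglech (6, 4) and 1 of low depth (110, 123). Levels are in CPM, the UMIs of the gene summed over the cells of a class per 1000000 UMIs outside immunoglobulin and mitochondrial genes. The free RNA in the droplets was not the same in both libraries, as seen from Igha, the IgA heavy chain gene, which was found in 34.5% of FMD and 67.5% of ad libitum CD8 T-like cells; its part in the chemokine values was not tested.

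Over all kept cells, Ccl1 and Ccl24 were at least 2-fold higher in the FMD library, Ccl20 was at least 2-fold lower, and the other 5 members were less than 2-fold apart. Among all 13072 genes with at least 20 UMIs, 4.3% were 2-fold apart or more, 2.01% of genes on the higher and 2.29% on the lower side in the FMD library. The median log2 ratio of FMD over ad libitum was 0.03 over the 7 members that have one, 0.09 with Ccl24 set at its lower bound, and 0.01 over all genes.

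**Figure D1:**
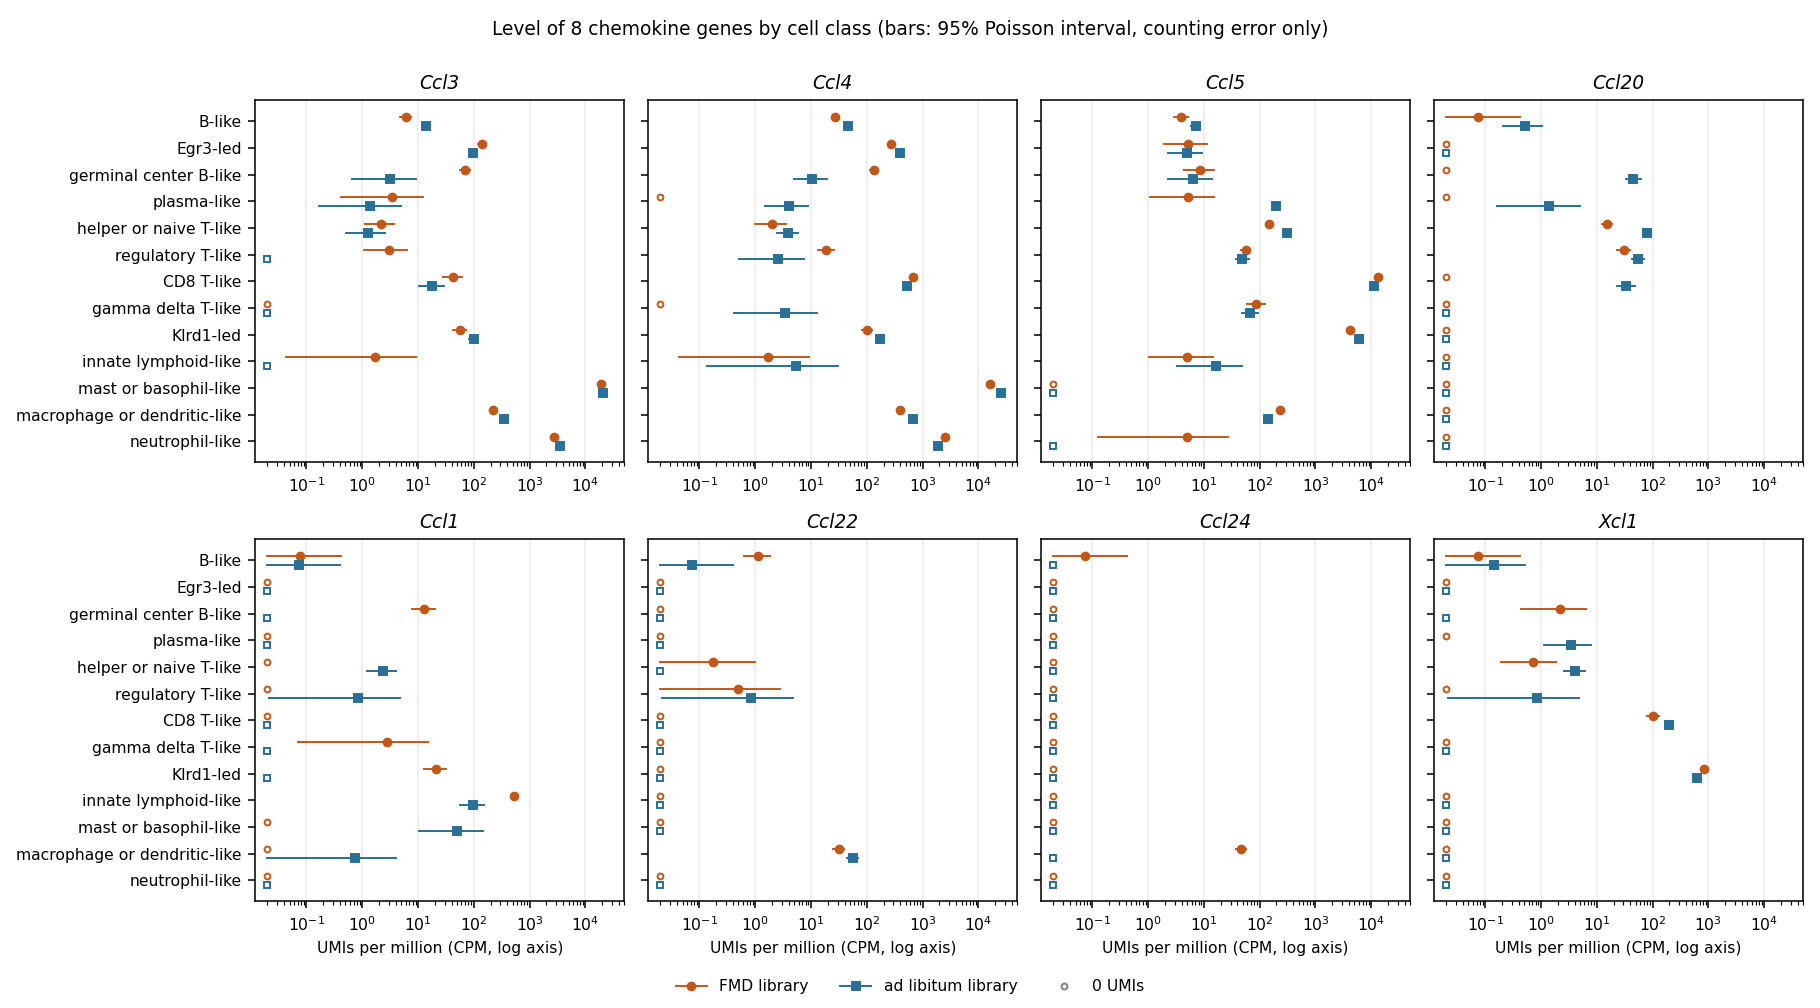
Level of each member by cell class, in CPM on a log axis, in the FMD library (circles) and the ad libitum library (squares), with 95% Poisson intervals; open symbols at the left edge mark 0 UMIs. Among the classes drawn, Ccl3 and Ccl4 were highest in mast or basophil-like and then neutrophil-like cells, Ccl5 in CD8 T-like cells, Xcl1 in Klrd1-led cells, and Ccl1 in innate lymphoid-like cells.

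Ccl3 and Ccl4, ligands that draw T cells, monocytes and natural killer cells, had a large part of their UMIs in 25 cells. Ccl3 had 3854 UMIs in 211 FMD cells and 3282 UMIs in 231 ad libitum cells. The mast or basophil-like cluster, 0.264% of the kept cells, held 61.3% of the Ccl3 UMIs of the FMD library and 37.8% of those of the ad libitum library. It held 41.3% of the FMD and 29.3% of the ad libitum Ccl4 UMIs. Summed over the cluster, Ccl3 was at 19311 CPM in its 16 FMD cells and 20945 CPM in its 9 ad libitum cells. In the FMD library, 5 cells held 51.9% of all Ccl3 UMIs, and in the ad libitum library 5 cells held 40.8%.

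The cluster split into a mast-like sub-cluster of 14 cells and a sub-cluster of 11 cells led by Il1b, which encodes interleukin-1 beta. The split was made after the values had been seen. The Il1b-led cells held 3302 of the 7136 Ccl3 UMIs of both libraries. Ccl3 in the 6 FMD cells of this sub-cluster was 568, 523, 497, 214, 200 and 68 UMIs, and in the 5 ad libitum cells it was 629, 258, 211, 86 and 48 UMIs. Ccl4 in the same cells was 541, 509, 115, 247, 43 and 37 UMIs in the FMD library and 610, 301, 211, 203 and 122 UMIs in the ad libitum library. Every one of the 11 cells had both chemokines, and the cells of the libraries overlapped in range for both. Mcpt8, a protease gene that marks basophils in mice, was found in 9 of the 11 cells and also in 11 of the 14 mast-like cells. Cd200r3, another basophil marker, was found in 8 of the 11 and 3 of the 14, and Prss34 in 1 cell of each sub-cluster. The mast cell genes Mcpt1 and Kit (the stem cell factor receptor) had 0 UMIs in all of the Il1b-led cells. Other genes of the mast marker list were present in them: Gata2 in 7, Ms4a2 in 6, Fcer1a in 5 and Cpa3 in 2 of the 11 cells. The sub-cluster was left unnamed.

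The 14 mast-like cells held 298 Ccl3 UMIs and 584 Ccl4 UMIs. Kit was found in 12 of them and Cpa3, mast cell carboxypeptidase, in all 14. Within them, the 2 cells with the most Mcpt1, a mucosal mast cell protease (529 and 419 UMIs), had 1 and 2 Ccl3 UMIs and 0 Ccl4 UMIs. The 4 cells with the most Ccl3 (84, 72, 52 and 50 UMIs), all of the FMD library, had 0 Mcpt1 UMIs and 81, 26, 57 and 52 Mcpt8 UMIs. The cell with 84 Ccl3 UMIs also had 24 UMIs of Prss34 and 6 of Cd200r3, genes known from mouse basophils, and 0 of Kit, which goes against the name of its sub-cluster. The ad libitum cell with the most Mcpt1 (142 UMIs) had 6 Ccl3 and 45 Ccl4 UMIs, so Mcpt1 and these chemokines were not mutually exclusive.

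**Figure D2:**
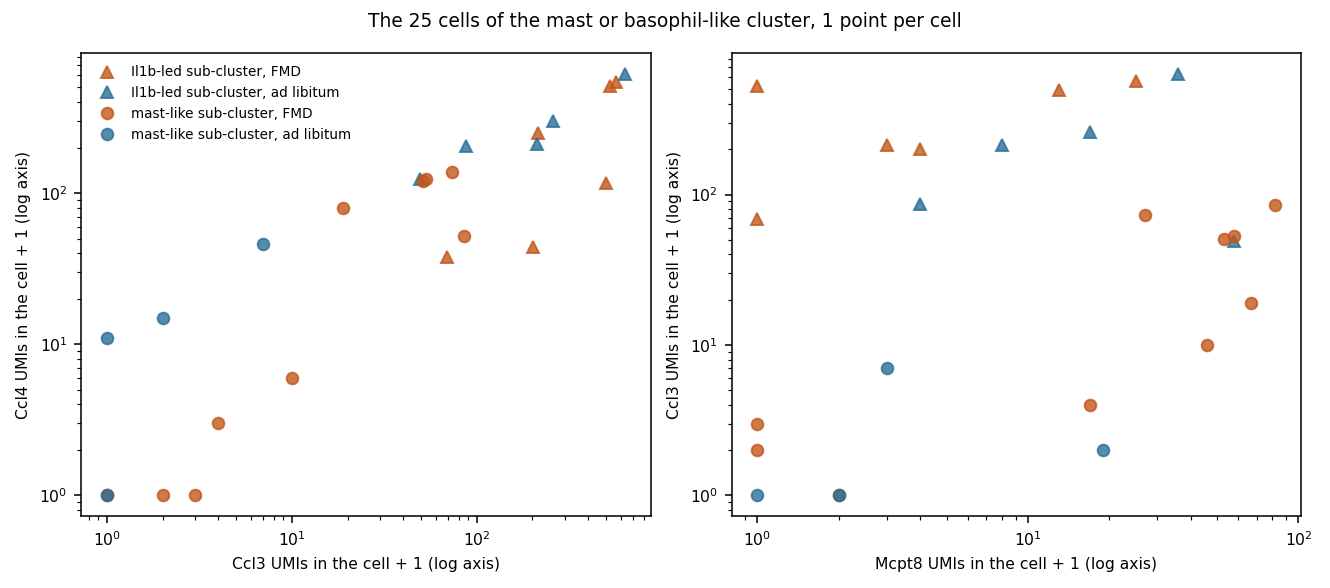
UMIs per cell, plus 1, on log axes in the 25 cells of the mast or basophil-like cluster: Ccl4 against Ccl3 (left) and Ccl3 against Mcpt8 (right), with triangles for the Il1b-led and circles for the mast-like sub-cluster. The Il1b-led cells of both libraries reach 568 (FMD) and 629 (ad libitum) Ccl3 UMIs, and the cells of the mast-like sub-cluster, among them 1 with basophil genes at 84, stay at or below 84.

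Outside that cluster, Ccl3 was highest in neutrophil-like cells, at 2766 CPM in the FMD library (95% interval 2542 to 3004) and 3488 CPM in the ad libitum library (3282 to 3703). The log2 ratio of FMD over ad libitum was -0.33 (-0.48 to -0.19), and it was -0.84 without the 3 richest cells of each library. With each cell thinned to 1000 UMIs, 45.1% of FMD and 56.5% of ad libitum neutrophil-like cells had a Ccl3 UMI (34 of 55 FMD and 57 of 72 ad libitum cells before thinning), and the intervals of the thinned shares overlapped. Macrophage or dendritic-like cells came next, at 218 CPM in the FMD library and 342 CPM in the ad libitum library (log2 ratio -0.65, -0.83 to -0.46), a difference that was -0.10 (-0.38 to 0.19) without the 3 richest cells of each library. In the FMD library the order went on with Egr3-led cells at 139 CPM (log2 ratio to the ad libitum library 0.55, but 0.08 without the 3 richest cells of each library), then germinal center B-like, Klrd1-led and CD8 T-like cells at 70.2, 56.5 and 42.7 CPM, where neighbours overlapped. In the ad libitum library Klrd1-led and Egr3-led cells, at 100 and 95.1 CPM, overlapped.

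Ccl3 was lower in the FMD library in B-like cells, with 80 UMIs (6.02 CPM) against 191 UMIs (13.8 CPM) in the ad libitum library (log2 ratio -1.20, -1.60 to -0.82). It was 1 of 3 members with at least 20 UMIs in B-like cells that was at least 2-fold lower, where 0.812% of 10586 genes were; 0 of the 3 were 2-fold higher, where 0.661% were. In thinned B-like cells the share with Ccl3 was 0.560% in the FMD and 1.05% in the ad libitum library (51 of 2505 FMD and 60 of 2673 ad libitum cells before thinning), set beside 0.529% of FMD and 0.129% of ad libitum helper or naive T-like cells, a class with little Ccl3 (median depth 5244 and 5075 UMIs in B-like cells, 7354 and 7212 in helper or naive T-like cells). The richest FMD B-like cells had 14 and 7 Ccl3 UMIs, whereas each of the 12 positive FMD helper or naive T-like cells had 1. In the FMD library the shares were thus alike and the UMIs per cell were not. In the ad libitum library the shares were not alike, with the higher one, 1.05%, in B-like cells and 0.129% in helper or naive T-like cells. Germinal center B-like cells had 98 Ccl3 UMIs in the FMD library, 67 of them in 1 cell, and 3 in the ad libitum library.

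In the natural killer-like sub-cluster of the Klrd1-led cells, Ccl3 had 9 UMIs in 52 FMD cells and 81 UMIs in 21 ad libitum cells, 49 of the 81 in 1 cell. In macrophage-like cells the level was 290 CPM in the FMD library and 873 CPM in the ad libitum library (log2 ratio -1.59, -1.85 to -1.34). The sub-cluster called Cd209a-led had S100a9 ahead of Cd209a among its lead genes, and S100a8 after it. Among the marker lists, it scored highest for neutrophils. Whether neutrophils in it held its Ccl3 was not tested. In this Cd209a-led sub-cluster the Ccl3 level was 211 CPM in the FMD and 115 CPM in the ad libitum library (0.87, 0.53 to 1.23). These levels rest on few cells: in macrophage-like cells 5 cells held 55.7% of the FMD and 95.4% of the ad libitum Ccl3 UMIs, and in Cd209a-led cells 5 held 93.4% of the FMD and 95.6% of the ad libitum ones. The log2 ratios of the thinned shares had intervals that spanned 0 in both, -0.52 (-1.67 to 0.63) in macrophage-like and 1.01 (-1.25 to 3.26) in Cd209a-led cells. That class also held 13 FMD and 26 ad libitum cells with B cell markers, whose median depth was 9738 UMIs in the FMD and 934 UMIs in the ad libitum library.

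Ccl4 had 4858 UMIs (165 CPM) in 282 FMD cells and 5172 UMIs (175 CPM) in 368 ad libitum cells. Over all kept cells its log2 ratio was -0.08 (-0.14 to -0.03), and -0.35 without the mast or basophil-like cluster. Without that cluster the ratio of Ccl3 was -0.44 (-0.54 to -0.34), against 0.24 (0.17 to 0.31) with it, so the direction of Ccl3 over all cells turned on 25 cells.

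In neutrophil-like cells Ccl4 was at 2501 CPM in the FMD library and 1868 CPM in the ad libitum library. The log2 ratio of 0.42 (0.25 to 0.60) was 0.01 (-0.23 to 0.25) without the 3 richest cells of each library, and the share of thinned cells with a Ccl4 UMI was 25.5% in the FMD and 42.0% in the ad libitum library, the other way round (22 of 55 FMD and 37 of 72 ad libitum cells before thinning). CD8 T-like cells had 680 CPM in the FMD and 531 CPM in the ad libitum library (0.36, 0.16 to 0.55), with 32.5% of FMD and 29.8% of ad libitum thinned cells positive (57 of 84 FMD and 70 of 114 ad libitum cells before thinning). With a coarser clustering (Leiden resolution 0.5), the Ccl4 ratio of the CD8 T-like class was -0.03 (-0.19 to 0.14). Macrophage or dendritic-like cells had 396 CPM in the FMD and 664 CPM in the ad libitum library (-0.75, -0.88 to -0.61). In the FMD library the order was neutrophil-like, CD8 T-like, then macrophage or dendritic-like cells; in the ad libitum library the last 2 changed places, and the intervals of these neighbours did not overlap in either library. The Siglech-led cluster, 6 FMD and 4 ad libitum cells, is left out of this order and of the plot of levels by class. It had 28 Ccl4 UMIs (358 CPM) in the FMD library and 100 (1901 CPM, 1547 to 2312) in the ad libitum library, 80 of the 100 in 1 cell.

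Egr3-led cells carried Ccl4 too, in 29 of 231 FMD cells (12.6%) and 66 of 375 ad libitum cells (17.6%). Their level was 277 CPM in the FMD library and 397 CPM in the ad libitum library (-0.52, -0.71 to -0.33). B-like cells had 26.7 CPM in the FMD and 46.2 CPM in the ad libitum library (-0.79, -0.99 to -0.60), while the share of thinned B-like cells with Ccl4 was 1.64% in the FMD and 1.61% in the ad libitum library. Before thinning, 78 FMD and 106 ad libitum B-like cells had a Ccl4 UMI. Of the members with at least 20 UMIs in Egr3-led cells, Ccl3 and Ccl4, 0 were 2-fold apart, where 1.03% of 7312 genes were higher by that much in the FMD library and 2.35% were lower. Of 3 such members in regulatory T-like cells, Ccl4 was 2-fold higher, where 2.5% of 8188 genes were, and 0 were 2-fold lower, where 1.44% were. There, Ccl4 had 38 UMIs in the FMD library, 32 of them in 1 cell, and 3 in the ad libitum library.

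Although neighbours on the chromosome, Ccl3 and Ccl4 were not found in a fixed proportion. Per Ccl3 UMI there were 15.9 Ccl4 UMIs in FMD and 29.4 in ad libitum CD8 T-like cells, 1.82 in FMD and 1.94 in ad libitum macrophage or dendritic-like cells, and 0.904 in FMD and 0.536 in ad libitum neutrophil-like cells. The ratio is read only across classes, since the 2 transcripts may be captured with unequal efficiency. Of the CD8 T-like cells with Ccl3, 12 of 12 FMD and 8 of 9 ad libitum cells also had Ccl4; of the neutrophil-like cells with Ccl3, 17 of 34 FMD and 30 of 57 ad libitum cells did.

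**Figure D3:**
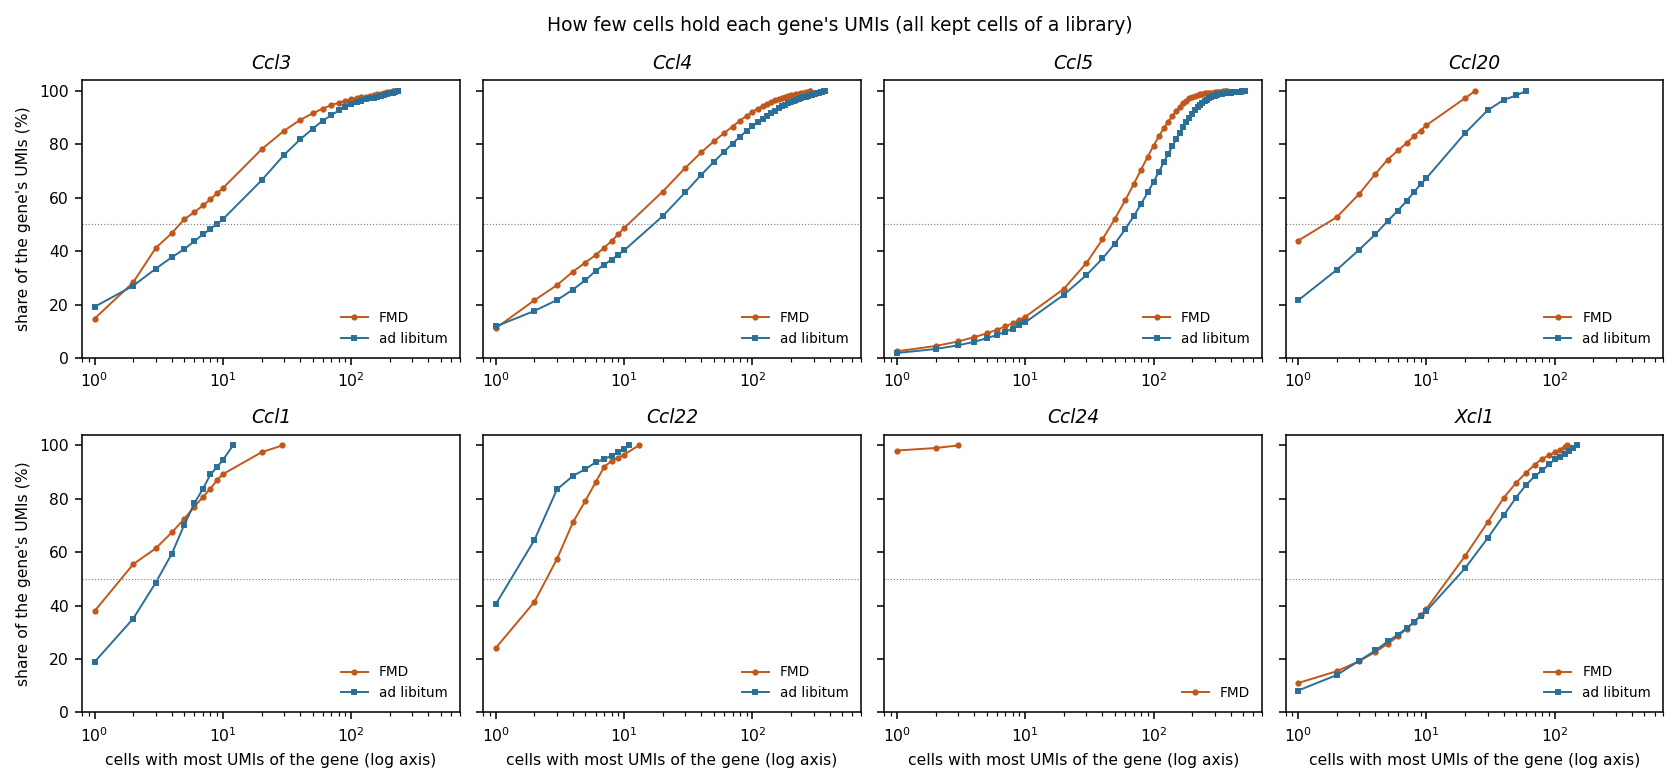
Share of each member's UMIs (vertical axis, %) held by the cells richest in it (horizontal axis, number of cells, log axis) in all kept cells of the FMD and the ad libitum library; the dotted line marks 50%. The 5 richest cells held 9.21% of the FMD and 7.35% of the ad libitum Ccl5 UMIs, and 51.9% of the FMD and 40.8% of the ad libitum Ccl3 UMIs.

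Ccl5 (RANTES), a product of effector and memory T cells and natural killer cells, was the member spread over the most cells. It had 13838 UMIs (470 CPM) in 375 FMD cells and 19068 UMIs (644 CPM) in 520 ad libitum cells, a log2 ratio of -0.45 (-0.49 to -0.42). The richest cell held 2.50% of its FMD and 1.86% of its ad libitum UMIs. CD8 T-like cells held 58.2% of the Ccl5 UMIs of the FMD library and 51.0% of those of the ad libitum library, and Klrd1-led cells held 30.4% in the FMD and 36.2% in the ad libitum library.

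CD8 T-like cells had 13217 CPM of Ccl5 in the FMD library and 10974 CPM in the ad libitum library (log2 ratio 0.27, 0.23 to 0.31). Nearly every cell was positive after thinning, 95.2% in the FMD and 97.4% in the ad libitum library (82 of 84 FMD and 113 of 114 ad libitum cells before), and the median over positive cells was 95 UMIs in the FMD and 73 in the ad libitum library. The highest cell had 346 UMIs in the FMD and 355 in the ad libitum library. With a coarser clustering (Leiden resolution 0.5), in which no separate Klrd1-led cluster formed, the CD8 T-like class held 12151 FMD and 16633 ad libitum Ccl5 UMIs and its ratio was -0.11, so this direction depends on where the class ends.

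Klrd1-led cells had 4177 CPM of Ccl5 in the FMD library and 6014 CPM in the ad libitum library (-0.53, -0.58 to -0.47), with 58.3% of FMD and 75.6% of ad libitum thinned cells positive (92 of 141 FMD and 131 of 156 ad libitum cells before thinning). The sub-clusters of this class differed. In the natural killer-like cells, which had Ncr1 (the receptor NKp46) in 26 of 52 FMD and 11 of 21 ad libitum cells, Ccl5 was at 2067 CPM in the FMD and 8454 CPM in the ad libitum library (-2.03, -2.17 to -1.89). The ad libitum value came from 13 positive cells, of which 2 had 262 and 254 of the 1104 UMIs, and the log2 ratio of the thinned shares (35.3% of FMD and 57.1% of ad libitum cells) was -0.70, with an interval that reached 0 (-1.45 to 0.06). In the Cd8a-led sub-cluster it was at 4305 CPM in the FMD and 4239 CPM in the ad libitum library (0.02, -0.08 to 0.12), and in the Ly6c2-led one at 9105 CPM in the FMD and 8497 CPM in the ad libitum library (0.10, 0.02 to 0.18). The natural killer-like cells also made up 52 of the 141 FMD and 21 of the 156 ad libitum cells of the class. The part of this makeup in the ratio of the whole class, and the difference among sub-clusters, were not tested.

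Helper or naive T-like cells had 832 Ccl5 UMIs (149 CPM) in the FMD library and 1735 UMIs (310 CPM) in the ad libitum library (-1.06, -1.18 to -0.94). The share of positive cells was 5.69% of FMD and 6.45% of ad libitum thinned cells, with overlapping intervals (90 FMD and 92 ad libitum cells before thinning). Most of these UMIs were in the cluster led by Tnfsf11 (RANK ligand), with 600 UMIs in 61 FMD cells and 1640 UMIs in 70 ad libitum cells, where the highest cell had 82 UMIs in the FMD and 246 in the ad libitum library. In the cluster led by Igfbp4, with 209 UMIs in 22 FMD cells and 74 in 14 ad libitum cells, the ratio was the other way (1.30, 0.91 to 1.70), and 76 of its 209 FMD UMIs were in 1 cell.

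All 4 members with at least 20 UMIs in helper or naive T-like cells (Ccl4, Ccl5, Ccl20 and Xcl1) were at least 2-fold lower in the FMD library, where 1.53% of 10060 genes were, 0.915% of genes were 2-fold higher and the median log2 ratio of all genes was -0.03. They were read on few cells: Xcl1 had 4 UMIs in the FMD and 23 in the ad libitum library (-2.52, -4.52 to -0.98), Ccl5 was -0.86, under 2-fold, without the 3 richest cells of each library, and Ccl4 had 11 in the FMD and 22 in the ad libitum library with an interval of the log2 ratio that reached 0 (-2.19 to 0.10).

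Ccl5 in the other classes lay in few cells. Macrophage or dendritic-like cells had 522 UMIs in 14 FMD cells and 189 UMIs in 34 ad libitum cells (0.75, 0.51 to 1.00), so fewer cells held more UMIs in the FMD library. Within them, the dendritic-like sub-cluster had 178 UMIs in 3 of 7 FMD cells and 11 UMIs in 4 of 11 ad libitum cells. Plasma-like cells had 3 UMIs in the FMD library and 292 in the ad libitum library, 204 of which were in 1 cell. In B-like cells, which do not make Ccl5 at a high level, the share of thinned cells was 0.440% in the FMD and 0.675% in the ad libitum library, and those in Egr3-led cells were 0.435% in the FMD library and 0% of 374 cells in the ad libitum library. A count of 0 allows up to 0.802% of these ad libitum Egr3-led cells to have a UMI, so a lower share in them was not detectable at this depth. The FMD share of Egr3-led cells is read as background.

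Xcl1 (lymphotactin), which natural killer cells and activated CD8 T cells release and which attracts cross-presenting dendritic cells, had nearly equal totals. There were 925 UMIs (31.4 CPM) in 124 FMD cells and 913 UMIs (30.8 CPM) in 148 ad libitum cells (0.03, -0.11 to 0.16). Klrd1-led cells held 92.3% of the FMD and 77.8% of the ad libitum UMIs. Their level was 847 CPM in the FMD library and 619 CPM in the ad libitum library (0.45, 0.31 to 0.60), with 31.7% of FMD and 28.8% of ad libitum thinned cells positive (89 FMD and 93 ad libitum cells before thinning). The CD8 T-like cells followed, at 103 CPM in the FMD and 194 CPM in the ad libitum library (-0.91, -1.35 to -0.48), and this value was 0.36 in the coarser clustering without a separate Klrd1-led cluster.

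Within the Klrd1-led class the natural killer-like cells were richest in Xcl1. They had 1561 CPM in the FMD library and 2045 CPM in the ad libitum library (-0.39, -0.61 to -0.17), with 54.9% of FMD and 66.7% of ad libitum thinned cells positive (38 of 52 FMD and 18 of 21 ad libitum cells before thinning). The Cd8a-led cells had 574 CPM in the FMD and 363 CPM in the ad libitum library (0.66, 0.36 to 0.97), and the Ly6c2-led cells 708 CPM in the FMD and 571 CPM in the ad libitum library (0.31, 0.01 to 0.61). The whole class was higher in the FMD library while its richest sub-cluster was lower there and larger, 52 FMD cells against 21 ad libitum cells. Xcl1 mostly came with Ccl5 in the same cell: 94 of the 124 FMD and 132 of the 148 ad libitum cells with Xcl1 also had Ccl5. In B-like cells 1 of 2505 FMD and 2 of 2673 ad libitum cells had an Xcl1 UMI.

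Of the 5 members with at least 20 UMIs in Klrd1-led cells, 1 was at least 2-fold higher in the FMD library, where 2.78% of 7596 genes were, and 0 were 2-fold lower, where 1.57% were. The member was Ccl1, all of whose 21 UMIs were in 1 natural killer-like cell.

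**Figure D4:**
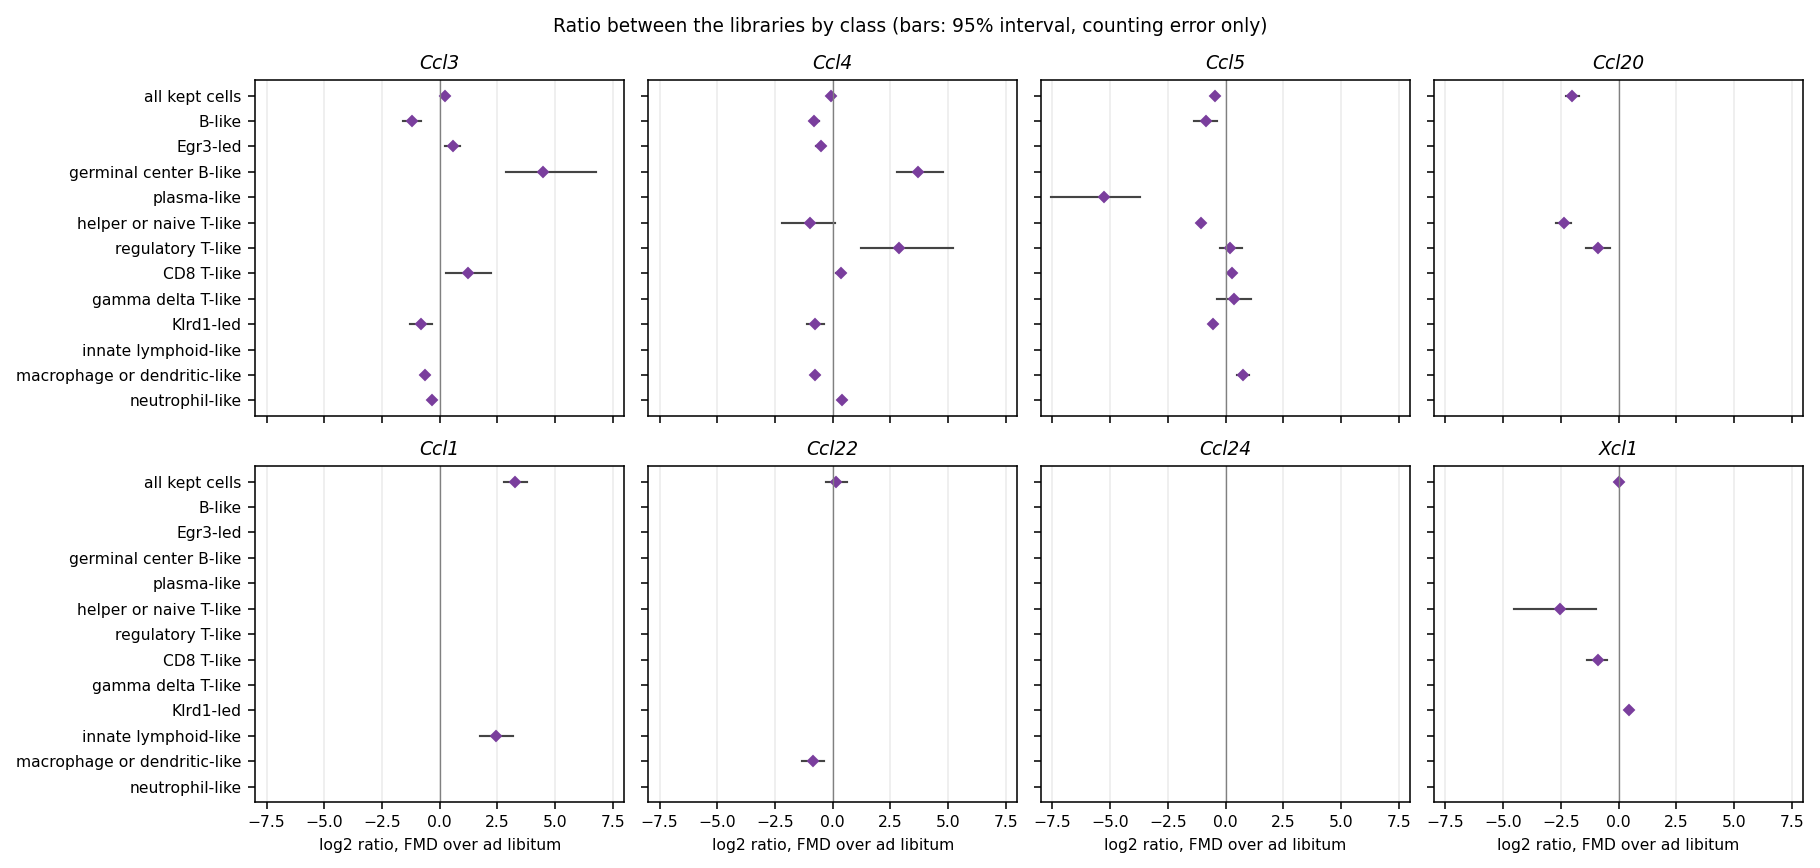
Log2 ratio of FMD over ad libitum for each member over all kept cells and by class, with 95% intervals of the counts; only pairs with at least 20 UMIs and some in both libraries are drawn. For Ccl5 the points lie at 0.27 in CD8 T-like and -0.53 in Klrd1-led cells, and for Ccl20 at -2.38 in helper or naive T-like cells.

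Ccl20, a ligand that type 17 T cells and epithelium release to draw Ccr6-positive cells, had 148 UMIs (5.03 CPM) in 24 FMD cells and 594 UMIs (20.1 CPM) in 60 ad libitum cells. The FMD level was 0.251 times the ad libitum level (interval of the log2 ratio -2.27 to -1.73). All but 1 of the FMD UMIs were in T cells. In the ad libitum library germinal center B-like cells held 43 UMIs in 4 cells and CD8 T-like cells held 30 UMIs in 1 cell, where the FMD library had 0 in both classes. Whether those 4 cells of the germinal center B-like cluster had B or T cell markers was not checked.

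The Ccl20 of helper or naive T-like cells was nearly all in the cluster led by Tnfsf11, which also had Il17a, the type 17 cytokine gene, in 14.3% of FMD and 20.9% of ad libitum cells. There, Ccl20 was found in 9 of 230 FMD cells, at 65, 5, 4, 3, 2, 2, 2, 2 and 1 UMIs, and in 34 of 278 ad libitum cells, at 1 to 128 UMIs with a median of 5. The level was 47.6 CPM in the FMD library and 216 CPM in the ad libitum library (-2.18, -2.53 to -1.85). One FMD cell held 65 of the 86 UMIs, and 2 FMD cells against 17 ad libitum cells had 5 UMIs or more. Of thinned cells, 1.32% in the FMD library and 7.19% in the ad libitum library were positive, so the lower FMD level went with a lower share of positive cells.

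Regulatory T-like cells showed another pattern for Ccl20. All of it was in the cluster led by Il10, which encodes interleukin-10, with 61 UMIs in 14 of 224 FMD cells and 66 UMIs in 13 of 108 ad libitum cells. The level was 37.9 CPM in the FMD and 97.9 CPM in the ad libitum library (-1.37, -1.90 to -0.85), while the share of thinned cells was 3.26% in the FMD and 3.92% in the ad libitum library, within counting error of each other. Over all regulatory T-like cells the log2 ratio was -0.89 (-1.42 to -0.37), and it was 0.69 (-0.89 to 2.53) with each cell thinned to 1000 UMIs. The highest cell had 13 UMIs in the FMD and 21 in the ad libitum library, and the cells overlapped in range. In the FMD library regulatory T-like cells were above helper or naive T-like cells (30.1 and 15.4 CPM), and in the ad libitum library below them (55.8 and 79.7 CPM), with intervals that did not overlap in either.

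**Figure D5:**
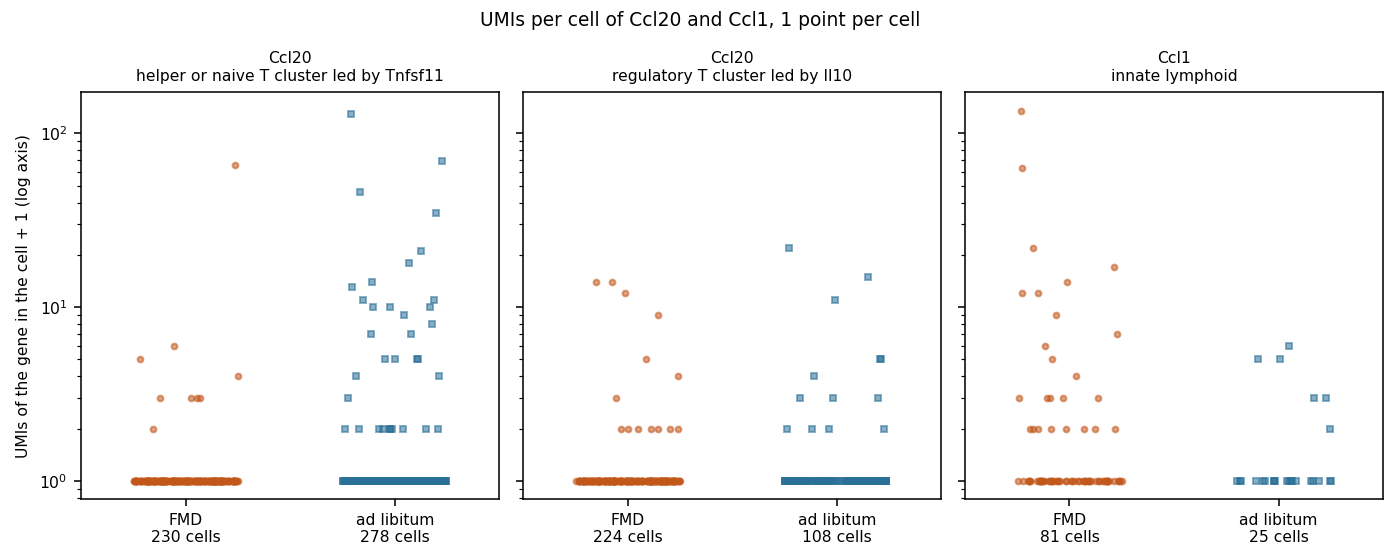
UMIs per cell, plus 1, on a log axis, 1 point per cell, FMD left of ad libitum: Ccl20 in the helper or naive T-like cluster led by Tnfsf11 and in the regulatory T-like cluster led by Il10, and Ccl1 in innate lymphoid-like cells. Cells at 0 lie on the bottom line; Ccl1 reaches 134 UMIs in the FMD library and 5 in the ad libitum library.

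Ccl1, known in mice from activated T cells, mast cells and type 2 innate lymphoid cells, had most of its FMD UMIs in innate lymphoid-like cells. These cells had Il1rl1, the interleukin-33 receptor gene, in 72.8% of FMD and 88.0% of ad libitum cells, and Cd3e in 7.41% of FMD and 4% of ad libitum cells. Over all kept cells Ccl1 had 353 UMIs (12.0 CPM) in 29 FMD cells and 37 UMIs (1.25 CPM) in 12 ad libitum cells (3.26, 2.77 to 3.79). Innate lymphoid-like cells held 88.4% of the FMD and 48.6% of the ad libitum UMIs, and helper or naive T-like cells held 35.1% of the ad libitum ones.

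Within the innate lymphoid-like cells Ccl1 was found in 25 of 81 FMD cells (30.9%) and 6 of 25 ad libitum cells (24.0%). The FMD cells ran from 1 to 134 UMIs with a median of 2, and the 5 highest had 134, 62, 21, 16 and 13. The ad libitum cells had 5, 4, 4, 2, 2 and 1 UMIs. The level was 520 CPM in the FMD library and 97.2 CPM in the ad libitum library (2.42, 1.73 to 3.19), and 2.01 (1.20 to 2.94) without the richest cell of each library. Of thinned cells, 7 of 80 FMD and 2 of 25 ad libitum cells were positive. Over all kept cells the difference also moved with the number of innate lymphoid-like cells, 81 in the FMD library and 25 in the ad libitum library.

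The other Ccl1 UMIs lay in few cells. One natural killer-like FMD cell had 21, and 1 FMD cell in the germinal center B-like cluster had 18 together with 14 UMIs of Cd3e and 0 of Cd79a, markers of a T cell and not of a B cell. In the ad libitum library 2 cells of the Tnfsf11-led cluster had 7 and 6 UMIs, the highest in that library. In B-like cells 1 cell of each library had 1 UMI, a level read as background.

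Ccl22, which mature dendritic cells make to attract regulatory T cells, had 87 UMIs in 13 FMD cells and 79 UMIs in 11 ad libitum cells (0.15, -0.31 to 0.61). Macrophage or dendritic-like cells held 80.5% of the FMD and 97.5% of the ad libitum UMIs. One FMD cell of the B-like class, with 38 Cd79a UMIs, held 15 more. Within the myeloid class the level was 31.4 CPM in the FMD and 56.6 CPM in the ad libitum library (-0.85, -1.34 to -0.36), a ratio that was 0.35 (-0.75 to 1.53) without the 3 richest cells of each library and so is carried by a few cells.

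The dendritic-like sub-cluster, led by Fscn1 (fascin, a gene of migrating dendritic cells), was richest in Ccl22 in both libraries. It had 23 UMIs in 3 of 7 FMD cells (508 CPM, 322 to 763) and 52 UMIs in 5 of 11 ad libitum cells (591 CPM, 442 to 775), and these levels overlap. The Cd209a-led cells had 47 UMIs in 7 FMD cells (34.6 CPM) and 5 UMIs in 2 ad libitum cells (6.35 CPM). Macrophage-like cells had 0 UMIs in the FMD library and 20 in the ad libitum library, 19 of them in 1 cell. With so few cells, no direction is read from these sub-clusters.

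Ccl24, an attractant of eosinophils that macrophages make, was found in 3 FMD cells, with 103, 1 and 1 UMIs, and in 0 of 4869 ad libitum cells, which allows a share of cells with a Ccl24 UMI of up to 0.0616%. The cell with 103 UMIs was a macrophage-like cell with 15 UMIs of Lyz2, the lysozyme gene of myeloid cells. Against a floor of 3 counts in the ad libitum library, the level over all kept cells was at least 35.2-fold higher in the FMD library, a bound that rests on this 1 cell. Of the 5 members with at least 20 UMIs in macrophage or dendritic-like cells, Ccl24 was 1 that was at least 2-fold higher in the FMD library, where 2.97% of 8472 genes were, and 0 were at least 2-fold lower, where 4.38% were.

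The genes whose level most resembled that of a member were ranked by Pearson correlation of log2(CPM + 10) over 44 points, the FMD and ad libitum sums of 22 clusters, among 9507 genes with at least 200 UMIs, chemokine ligands left out. The mast or basophil-like and Siglech-led clusters, with under 20 cells in each library, were left out. The former held 50.4% of the Ccl3 and 35.1% of the Ccl4 UMIs of both libraries together. The points share 2 libraries and the cluster depths, and the values are a description. For Ccl3 the 3 most alike were Fcgr3 (r = 0.87), an activating Fc receptor of myeloid cells, Tyrobp (0.87), a signalling adaptor of immune receptors, and Apobr (0.86). For Ccl4 they were Nod1 (0.76), Marcksl1 (0.75) and Tyrobp (0.73). For Ccl5 they were Itga1 (0.93), an integrin chain of tissue T cells, Tbx21 (0.91), the T-bet transcription factor, and Ctsw (0.90), and for Xcl1 Klre1 (0.97), Arl4d (0.92) and Cd160 (0.91).

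For the rarer members most points were at 0, so these correlations lean on few clusters. Ccl20, at 0 in 32 of 44 points, was most like Grb7 (0.81), Dkkl1 (0.72) and Cxcr3 (0.67). Ccl1, at 0 in 34, was most like Rab27b (0.94), Il5 (0.94) and Csf2 (0.93), the last 2 being cytokine genes of type 2 innate lymphoid cells. Ccl22, at 0 in 37, was most like Ifi205 (0.97), Plet1 (0.96) and Htr7 (0.96). Ccl24, at 0 in 42, was most like C1qb (0.94) and Wnt11 (0.83), values that rest on 1 FMD cell with 103 of its 105 UMIs.

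Among the 7 receptors of the members, 1 (Xcr1) was 2-fold lower or more in the FMD library over all kept cells, where 2.29% of all genes were. Of the 7, 0 were 2-fold higher, where 2.01% of all genes were. The median log2 ratio of the 7 was 0.26 beside 0.01 over all genes. Ccr6, the Ccl20 receptor, had 2085 UMIs in the FMD and 2028 in the ad libitum library. B-like cells held 1567 of the FMD and 1509 of the ad libitum UMIs, at 118 CPM in the FMD and 109 CPM in the ad libitum library. Ccr1, a receptor of Ccl3 and Ccl5, had 1355 UMIs in the FMD and 1048 in the ad libitum library. Ccr1 was highest in neutrophil-like cells, at 1145 CPM in the FMD and 954 CPM in the ad libitum library, the cells that were also high in its ligand Ccl3. Ccr4, the Ccl22 receptor, had 600 UMIs in the FMD and 370 in the ad libitum library, and regulatory T-like cells had 161 CPM in the FMD and 133 CPM in the ad libitum library. Ccr8 of Ccl1 (45 FMD, 43 ad libitum UMIs), Ccr3 of Ccl24 (43 FMD, 22 ad libitum) and Xcr1 of Xcl1 (10 FMD, 27 ad libitum) were rare.

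Over all kept cells, 2.01% of 13072 genes with at least 20 UMIs were 2-fold higher in the FMD library and 2.29% were 2-fold lower. Other CC and C ligands with at least 20 UMIs numbered 6, of which 2 were 2-fold higher in the FMD library and 1 was 2-fold lower (median 0.33). The 4 with most UMIs were Ccl6 (685 FMD, 437 ad libitum UMIs), Ccl9 (503, 245), Ccl25 (377, 377) and Ccl27a (102, 137). Of 8 CXC and CX3C ligands, 1 was higher and 2 were lower by that measure (median -0.14), and the 4 with most UMIs were Cxcl2 (10047 FMD, 12061 ad libitum UMIs), a neutrophil attractant, Cxcl10 (938, 2101), an interferon-induced ligand, Cxcl16 (1337, 960) and Cxcl3 (817, 1423). In macrophage or dendritic-like cells 4 of 7 CXC and CX3C ligands were at least 2-fold lower in the FMD library, beside 4.38% of all genes (median -1.79), where the members had a median of -0.70, or -0.65 with Ccl24 at its lower bound. Of 14 other chemokine receptors, 3 were higher and 1 was lower over all cells (median 0.08), and the 4 with most UMIs were Ccr7 (21372 FMD, 20850 ad libitum UMIs), Cxcr4 (12201, 13038), Cxcr6 (1952, 2562) and Ccr2 (2628, 1827). The 3 higher ones, named after their values were seen, had few UMIs: Cx3cr1 (65 FMD, 24 ad libitum UMIs), Ackr4 (20, 4) and Ackr2 (15, 5).

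Of 12 genes that activated leukocytes express beside chemokines, 1 was at least 2-fold higher in the FMD library over all cells, where 2.01% of genes were. It was Csf2, named after its values were seen. Of the 12, 0 were 2-fold lower, where 2.29% of genes were, and the median of the 12 was -0.06. The 4 with most UMIs were Zfp36l1 (22234 FMD, 23116 ad libitum UMIs), Nfkbia (22268, 20822), Tnfaip3 (16107, 14082) and Nr4a1 (12465, 15034). In Klrd1-led cells, 3 of 10 such genes (Csf2, Lta and Ifng, named after their values were seen) were at least 2-fold higher in the FMD library, where 2.78% of genes were (median 0.61), beside a median of -0.64 over the members that have a ratio there, or -0.53 with Ccl1 at its lower bound. Natural killer-like cells were 52 of the 141 FMD and 21 of the 156 ad libitum cells of this class, and their part in these values was not tested.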

How the data were processed

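Both 10x 3' V3 libraries of sorted CD45-positive cells were used, 1 per diet. The authors deposited, per the file headers, a matrix of UMI counts per gene and cell barcode written by Cell Ranger 3.1.0; the submitters' processing notes also name CASAVA 1.8, Seurat 2.3.4 and GRCm38, with no role given. Where 62 gene symbols stood on more than 1 line, the first was used. The FMD matrix held 5877 barcodes and 35280790 UMIs, the ad libitum matrix 6089 barcodes and 35712762 UMIs, with at least 500 UMIs per barcode in both. Removed were barcodes with under 200 genes (441 FMD, 475 ad libitum), over 20% mitochondrial UMIs (694, 661), and doublets (130, 84). A doublet was a cell called by Scrublet or one with markers of 2 cell types (at least 5 UMIs and 0.5 per 1000 UMIs of each of 2 marker panels). Scrublet, run at an expected rate of 0.05, called 2 cells in each library and had not worked on these data. Cells were clustered with scanpy 1.11.5 and leidenalg 0.10.2 (2000 variable genes without chemokine ligands, 30 components, 15 neighbours, resolution 1, seed 1), giving 24 clusters. Clusters were named from marker lists; myeloid, Klrd1-led and mast or basophil-like clusters were clustered again. Members, lists, marker panels, the naming and low-depth rules and the second clustering were chosen with earlier results of these data known.

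UMI counts were summed per library and class and scaled to UMIs outside immunoglobulin and mitochondrial genes. Intervals are exact Poisson for CPM, Clopper-Pearson for shares and conditional binomial for ratios, at 95%, and cover counting error only (scipy 1.17.1). Ratios were given with at least 20 UMIs; against 0 they are bounds with a floor of 3 counts per library. For shares, cells were thinned to 1000 UMIs, which left out 69 FMD and 94 ad libitum cells. Named were the 8 members, the 4 genes with most UMIs in each list and the 3 genes most like each member, chemokine ligands left out. A few genes that this rule names are not reported here. The scripts were tested on simulated data. With 1 library per diet, no count model was fitted. Proteins and the promoters of Ccl4, Ccl5 and Ccl24 were not used here.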

Additional observations from a re-analysis of the deposited data

Results flagged for a closer look

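Each member below had log2 ratios of FMD over ad libitum of opposite sign in 2 cell classes, with counting intervals that did not reach 0 on either side. With 1 library per diet, none of these differences between classes was tested. Ccl3 was higher in the FMD library in Egr3-led cells (0.55, 0.23 to 0.87, but 0.08 without the 3 richest cells of each library) and lower in neutrophil-like cells (-0.33, -0.48 to -0.19). Ccl4 was higher in neutrophil-like cells (0.42, 0.25 to 0.60, but 0.01 without the 3 richest cells, and with a lower share of positive thinned cells, 25.5% in the FMD and 42.0% in the ad libitum library) and lower in macrophage or dendritic-like cells (-0.75, -0.88 to -0.61). Ccl5 was higher in CD8 T-like cells (0.27, 0.23 to 0.31, but -0.11 at Leiden resolution 0.5) and lower in Klrd1-led cells (-0.53, -0.58 to -0.47). Xcl1 was higher in Klrd1-led cells (0.45, 0.31 to 0.60) and lower in CD8 T-like cells (-0.91, -1.35 to -0.48, but 0.36 at resolution 0.5 and 0.27 with ligands kept in the clustering).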

How the results depend on the processing

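No paired analysis was possible because there was 1 library per diet. Leaving out 1 library would leave nothing to compare, so no replicate was left out.

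Of the values recomputed for the main results, among them shares of positive cells and the order of classes, 94 stayed and 31 moved. A ratio stayed if it lay inside the counting interval of the reported one. Bounds, which have no interval, stayed if under 2-fold from the reported bound and of the same sign. The order of classes was judged by how many members kept their highest class. Over all kept cells, thinning each cell to 1000 UMIs gave log2 ratios of -0.40 for Ccl5, -1.42 for Ccl20, 2.18 for Ccl1, -0.42 for Ccl22, 0.38 for Xcl1 and at least 1.29 for Ccl24. Ccl5 was also -0.40 with doublets kept and -0.40 scaled to all UMIs. Without the richest cell of each library, Ccl3 was 0.32 and Ccl20 -2.48, and Ccl24 gave no value. Without the mast or basophil-like cluster, chosen after seeing the data, Ccl3 was -0.44, a change of direction, and Ccl4 was -0.35.

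Within classes, thinning gave -0.54 for Ccl3 in neutrophil-like cells, -0.54 for Ccl4, -1.43 for Ccl22 and at least 0.60 for Ccl24 in macrophage or dendritic-like cells, 0.32 for Ccl5 in CD8 T-like cells, 0.77 for Xcl1 in Klrd1-led cells and -1.31 for Ccl5 in helper or naive T-like cells. At Leiden resolution 0.5, Ccl4 was -0.88 and Ccl22 0.075 in macrophage or dendritic-like cells, and Ccl5 was -0.11 in CD8 T-like and -1.38 in helper or naive T-like cells. At that resolution the helper or naive T-like class lacked the cluster led by Igfbp4 (306 FMD, 271 ad libitum cells), which was left unnamed. With chemokine ligands kept in the clustering, Ccl5 was 0.15 in CD8 T-like cells. Ccl20 in helper or naive T-like cells was -1.99 with doublets kept and -3.92 without the richest cell of each library, which left Ccl4 in macrophage or dendritic-like cells at -0.97. Without the 3 richest cells, an alternative added after seeing the data, Ccl3 in neutrophil-like cells was -0.84, Ccl20 -4.10 and Ccl5 -0.86 in helper or naive T-like cells, and Ccl22 0.35 in macrophage or dendritic-like cells.

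Among the other class values, 171 stayed, 35 moved and 1 that was at least 2-fold apart changed sign: Ccl3 in CD8 T-like cells, -0.31 at resolution 0.5 against 1.24. Ratios under 2-fold changed sign too, so that in all 7 recomputed values of the main results and 11 of the other class values had the opposite sign, among them Xcl1 in CD8 T-like cells, 0.36 at resolution 0.5 and 0.27 with ligands kept, against -0.91. Neither reclustering gave a cluster under the name Klrd1-led, so that class had no value there. With ligands kept, a natural killer-like cluster led by Il22 and Xcl1 formed (58 FMD, 29 ad libitum cells), whose ratios were not computed. The causes were not tested. Ratios on few cells, as for Ccl1, Ccl20, Ccl22 and Ccl24, are limited by cells rather than by UMIs, and no interval here covers differences between mice.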
